A study of Mus musculus with 4 samples.

Results

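Nap1l5, Herc3, Gnas, Rasgrf1 and Inpp5f are 5 genes at 4 imprinted loci of the mouse, and they were taken by name from the 55602 genes of the bulk table and the 54750 genes of the allele-specific table of day 12-differentiated JB1 cells. All 5 had more than 8 bulk counts over the 4 libraries, the minimum for the comparison of genotypes, and 3 of them (Herc3, Gnas and Inpp5f) had enough reads for a test of the parental alleles. JB1 is a male hybrid embryonic stem cell line with a JF1 mother and a C57BL/6 (B6) father, so that JF1 reads are maternal and B6 reads are paternal. The wild-type group holds 2 replicates of JB1, and the Zfp57-/- (mutant) group holds 2 replicates of a JB1-derived line without functional ZFP57, which is 1 mutant line. Both groups were differentiated towards neural precursor cells with 1 µM cyclopamine from day 2 to day 10 and harvested at day 12. Cyclopamine inhibits Hedgehog signalling, and both genotypes received it.

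ZFP57 is a zinc finger protein that binds imprinting control regions on the methylated parental copy and keeps the methylation there after fertilisation and in embryonic stem cells. An imprinted gene is transcribed mainly from the maternal or mainly from the paternal copy. Nap1l5 is a retrogene of the nucleosome assembly protein family that lies on the opposite strand inside Herc3 and is known to be paternally expressed in brain. Gnas encodes the stimulatory G protein alpha subunit, and its locus has several promoters, of which the one for Nesp is maternally active, those for Gnasxl, exon 1A and the antisense transcript Nespas are paternally active, and that of the main Gsα transcript is active on both copies in most tissues. Rasgrf1 is a Ras guanine nucleotide exchange factor with paternal expression in the neonatal brain. Its control region is methylated on the paternal copy. Inpp5f, a phosphoinositide phosphatase with a SAC domain, is transcribed from both copies in its full-length form, and shorter forms that start further downstream are known to be paternally expressed in brain.

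The 5 genes lie on 4 chromosomes of GRCm38. Nap1l5 (ENSMUSG00000055430.4) occupies chr6:58905233-58907076 on the minus strand and is a single exon block of 1.84 kb. Herc3 (ENSMUSG00000029804.17), an E3 ubiquitin ligase of the HERC family, occupies chr6:58831465-58920398 on the plus strand. Nap1l5 overlapped 0 exons of Herc3 and lay in an intron, 0.724 kb after one annotated exon and 0.186 kb before the next, and both genes were counted on their own strand. Gnas (ENSMUSG00000027523.19) occupies chr2:174284320-174346744 on the plus strand, and its 24 transcripts in GENCODE vM21 begin at the start of the gene and at sites further downstream, including one 13.5 kb and one 45.7 kb from it. Rasgrf1 (ENSMUSG00000032356.12) occupies chr9:89909908-90026977 on the plus strand. Inpp5f (ENSMUSG00000042105.18) occupies chr7:128611328-128696425 on the plus strand, and 2 of its 9 transcripts begin 77.2 kb from the start of the gene and 1 begins 76.2 kb from it. The tables give 1 count per gene over all these transcripts. A change of the full-length Inpp5f form therefore cannot be told apart from a change of the short forms, and the same holds for the promoters of Gnas. Herc3 has forms that end before Nap1l5 and a form that runs past it, and these were counted together too.

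RefSeq promoter windows (GRCm38.p6, from 250 bases before to 50 bases after a start site) were searched on both strands for TGCCGC, the hexamer that ZFP57 recognises when its CpG is methylated, and for the related GGCCGC. Of 32851 windows, 11.6% held TGCCGC, 20% held GGCCGC and 26.8% held either. The 3 windows shown are those of the member with TGCCGC, of the member whose allelic ratio changed, and of the Gnas start site whose window held a hexamer. Capitals mark every match, and overlapping matches were counted apart. The Nap1l5 window (chr6:58907077-58907376, minus strand) held 2 matches to TGCCGC and 2 to GGCCGC. The Inpp5f window (chr7:128611115-128611414, plus strand), at the full-length start site, held 1 match to GGCCGC. The Gnas window at chr2:174329756-174330055 (plus strand), the start of the main Gsα transcript, held 2 matches to GGCCGC and 40 CpGs, against a median of 7 CpGs over all windows.
Nap1l5: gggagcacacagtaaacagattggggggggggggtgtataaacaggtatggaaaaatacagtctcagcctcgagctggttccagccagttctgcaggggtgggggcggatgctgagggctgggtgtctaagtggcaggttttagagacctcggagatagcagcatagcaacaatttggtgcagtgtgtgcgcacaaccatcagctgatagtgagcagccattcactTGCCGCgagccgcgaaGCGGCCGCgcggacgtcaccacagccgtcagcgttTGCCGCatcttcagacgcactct
Inpp5f: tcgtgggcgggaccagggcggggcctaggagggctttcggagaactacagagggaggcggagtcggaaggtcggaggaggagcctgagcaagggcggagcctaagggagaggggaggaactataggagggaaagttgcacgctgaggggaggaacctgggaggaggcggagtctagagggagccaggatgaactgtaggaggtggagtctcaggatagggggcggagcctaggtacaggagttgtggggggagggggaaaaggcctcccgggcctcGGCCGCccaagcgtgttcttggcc
Gnas: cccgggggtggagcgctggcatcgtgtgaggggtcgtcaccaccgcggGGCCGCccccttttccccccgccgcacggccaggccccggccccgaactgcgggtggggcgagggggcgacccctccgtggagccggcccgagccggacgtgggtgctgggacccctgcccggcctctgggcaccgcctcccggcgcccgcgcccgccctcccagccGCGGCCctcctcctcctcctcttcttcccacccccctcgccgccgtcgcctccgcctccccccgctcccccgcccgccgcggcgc
The windows of Herc3 and Rasgrf1 and the other windows of Gnas held neither hexamer. No window was searched at the Gnas start site 13.5 kb into the gene, at the starts of the short Inpp5f forms or at Nespas. Imprinting control regions outside the windows were not searched either. A match describes the letters only, since the binding of ZFP57 and DNA methylation were not measured in the files used here.

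The libraries held between 7663520 and 10337082 counts, of which 36.1 to 37.0% were assigned to an allele by a strain polymorphism. Zfp57 had 392 and 249 counts in the wild-type libraries and 158 and 144 in the Zfp57-/- libraries. None of the 82 and 76 allelic reads of Zfp57 in the Zfp57-/- replicates was maternal, which allows shares of up to 0.0366 and 0.0395, and these paternal reads stood beside 81 and 49 in the wild-type replicates. Reads of a gene body do not show which part of the gene was inactivated. Cell type markers differed between the groups. Higher and lower here mean past an adjusted p of 0.05 in the edgeR bulk comparison. Of all genes tested, 13% were higher and 14.6% were lower in the Zfp57-/- cells. The summed normalized count of 10 neuron markers was 16739 to 21949 in wild-type cells and 2170 to 2615 in mutant cells, with 9 of 10 lower, and that of 10 pluripotent markers was 622 to 1338 and 12503 to 13808, with 9 of 10 higher. Nanog was at 0 in both wild-type replicates. Klf4, the pluripotent marker that did not pass, made up most of the wild-type sum, with means of 922.2 in wild-type and 1118 in mutant cells. Of 8 neural progenitor markers, 5 were lower and none was higher. The sum of all 8 was 13016 to 15324 in the wild-type and 8989 to 9049 in the mutant libraries. Most of both sums was Vim, which did not pass (means 8220 and 6921). The log2 fold changes of the lower ones were -5.16 for Hes5, -3.03 for Pax6, -3.00 for Fabp7, -2.95 for Sox1 and -0.91 for Nes. Of 8 endoderm markers, 1 (Amn) was higher, near the share of all genes, with sums of 3082 to 4613 and 4221 to 5793. Among 5 tested of 6 endothelium and mesoderm markers, Pecam1 and T were higher and Kdr was lower, with sums of 860.2 to 1043 and 1602 to 1810, and Mesp1 had at most 1 count. These markers moved with the genotype beside every bulk level, allelic level and allelic ratio below, and their part in the results was not tested. In these bulk samples, fewer cells of a type and less RNA per cell cannot be told apart. Nor can a change of the allelic ratio within cells be told apart from a change in the mix of cells.

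Per length of exon, Gnas was the most abundant of the 5 transcripts. It lay at 60.8 and 80.9 RPKM (counts scaled to exon length and library size) in the wild-type libraries and at 48.2 and 54.0 in the Zfp57-/- replicates. Inpp5f followed with 8.53 and 7.80 in wild-type cells and 4.85 and 4.89 in mutant cells. Herc3 came next with 3.07 and 2.75 in wild-type cells and 2.73 and 2.62 in mutant cells. These 3 genes kept this order in every library, with no overlap between neighbours in the order. Nap1l5 and Rasgrf1 were both below 1 in every library. Nap1l5 had 0.269 and 0.104 in wild-type cells and 0.233 and 0.721 in mutant cells. Rasgrf1 had 0.201 and 0.0431 in wild-type cells and 0.0097 and 0.0277 in mutant cells. The wild-type values of these 2 genes overlapped, so their order in wild-type cells was not resolved, whereas both Zfp57-/- values of Nap1l5 exceeded those of Rasgrf1.

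**Figure D1:**
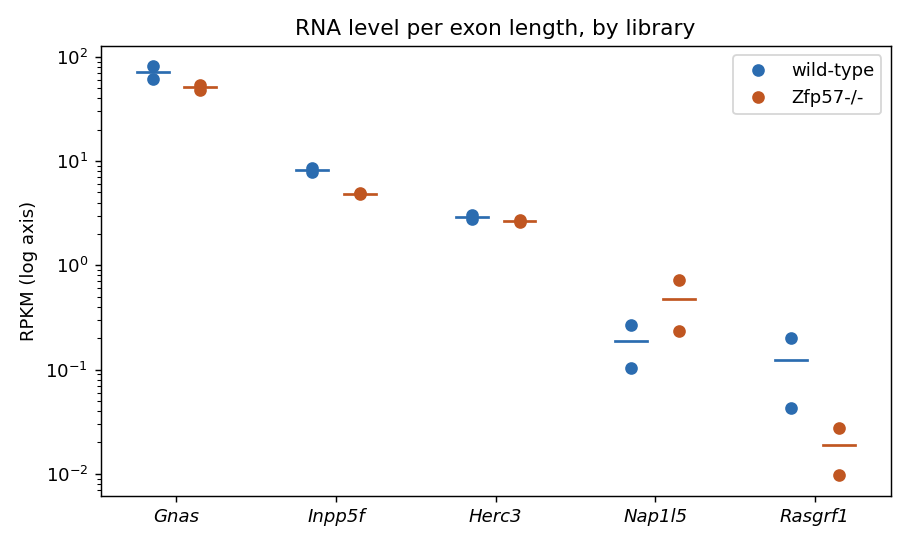
RNA level of the 5 genes in RPKM (counts scaled to exon length and library size, log axis), with a point for each library and a line for the mean of each genotype (wild-type blue, Zfp57-/- orange). Gnas, Inpp5f and Herc3 lie above 2.6 in every library, and Nap1l5 and Rasgrf1 lie below 1.

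Between genotypes, 1 of the 5 genes passed an adjusted p of 0.05 in the bulk comparison, against 27.6% of the 19995 genes tested. Values of 4 of the 5 did not overlap between the genotypes, against 66.3% of all genes tested. Log2 fold changes set Zfp57-/- over wild-type cells, counts are normalized to the mean library size with TMM factors, and adjusted p-values are from edgeR's quasi-likelihood test with Benjamini-Hochberg adjustment over all genes.

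Inpp5f was lower in the Zfp57-/- cells, and the maternal share of its reads was higher there. Its paternal reads were fewer in the mutant cells, and its maternal levels overlapped between genotypes. The normalized bulk count of Inpp5f was 667.9 and 611 in the wild-type libraries and 379.9 and 382.9 in the Zfp57-/- libraries, so that both mutant values lay below both wild-type values. The means were 639.4 ± 40.2 (SD, n = 2) and 381.4 ± 2.15 (SD, n = 2), which gave a log2 fold change of -0.74 (edgeR, standard error 0.19, adjusted p = 0.0164). The change did not pass the threshold without Zfp57-/- replicate 1 (log2 fold change -0.73, adjusted p = 0.236) or without Zfp57-/- replicate 2 (-0.74, adjusted p = 0.212), where the lone mutant library was assumed to vary like the wild-type libraries. Over its 11 alternatives the adjusted p ranged from 1.20e-06 to 0.236.

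The allelic ratio, maternal/(maternal + paternal) reads, of Inpp5f was below 0.5 in both wild-type replicates and above 0.5 in both Zfp57-/- replicates. Wild-type replicate 1 had 76 maternal and 156 paternal reads, a ratio of 0.328 (95% Wilson interval 0.27 to 0.39). Wild-type replicate 2 had 118 maternal and 175 paternal reads, a ratio of 0.403 (0.348 to 0.46). In Zfp57-/- replicate 1 the reads were 94 maternal and 57 paternal, a ratio of 0.623 (0.543 to 0.696). In Zfp57-/- replicate 2 they were 88 maternal and 77 paternal, a ratio of 0.533 (0.457 to 0.608), and this interval contains 0.5. The intervals cover counting error only. One of the 4 values, that of wild-type replicate 1, lay at or below 0.33, and none reached 0.67. The study applies these limits, for paternal and for maternal expression, to the mean of the replicates. The means were 0.365 ± 0.0531 (SD, n = 2) and 0.578 ± 0.0631 (SD, n = 2), 0.213 apart, and both lay between the limits.

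**Figure D2:**
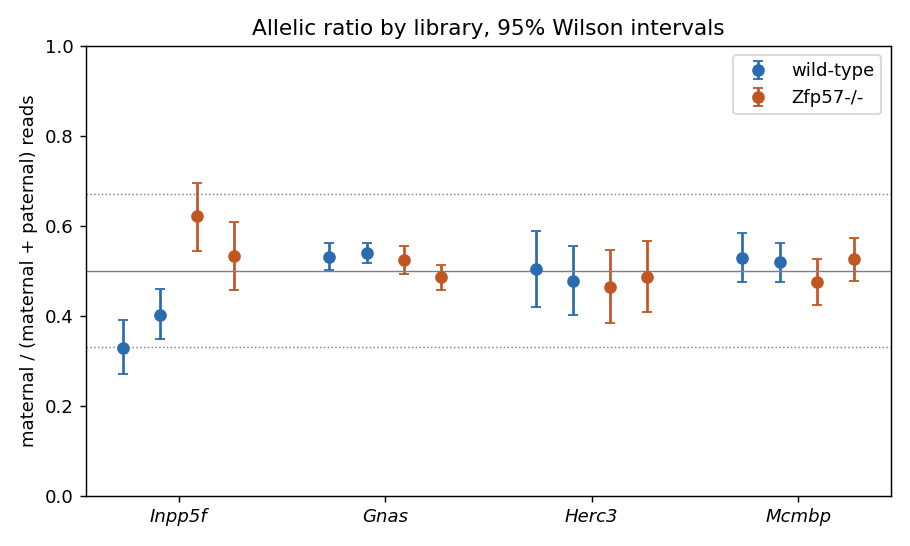
Allelic ratio, maternal/(maternal + paternal) reads, of Inpp5f, Gnas, Herc3 and Mcmbp, the gene next to Inpp5f, with a point and a 95% Wilson interval for each library (wild-type blue, Zfp57-/- orange). The solid line marks 0.5 and the dotted lines 0.33 and 0.67. Inpp5f lies at 0.328 and 0.403 in wild-type cells and at 0.623 and 0.533 in mutant cells, and the other genes lie near 0.5 in all 4 libraries.

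The genotype-by-allele contrast, which tests whether the ratio of maternal to paternal reads differs between genotypes, passed for 1 of the 3 members tested, against 14.5% of 10977 genes, and 4.18% of genes were called with a higher maternal share in the Zfp57-/- cells. For Inpp5f the contrast was 1.23 on the log2 scale (standard error 0.26, edgeR adjusted p = 0.00013), in the direction of a higher maternal share in the Zfp57-/- cells. It held with each library left out, between 0.97 and 1.5, and was not called by the Wald test of DESeq2 (1.25, adjusted p = 0.0746, the highest of 8 alternatives, the lowest being 1.45e-05). Within the wild-type cells, the log2 ratio of maternal to paternal reads was -0.78 (standard error 0.17, edgeR adjusted p = 0.000134). This bias had an adjusted p of 0.127 without wild-type replicate 1 and of 0.0942 in DESeq2, and a range from 2.72e-08 to 0.127 over 9 alternatives. Within the Zfp57-/- cells it was 0.44 (standard error 0.20, edgeR adjusted p = 0.1) and did not pass, where 21.8% of genes were called with all libraries. Of its 8 alternatives, the one without Zfp57-/- replicate 2 passed (0.72, adjusted p = 0.0371, within 0.0371 to 0.7 over the 8). Of the members tested, 2 of 3 passed for bias in wild-type cells, against 23.6% of genes.

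The 2 copies of Inpp5f were also compared between genotypes as levels. The maternal level in normalized allelic reads was 88.6 and 106 in the wild-type libraries and 95 and 84.7 in the Zfp57-/- libraries, which overlapped. The paternal level was 181.8 and 157.2 in wild-type cells and 57.6 and 74.1 in mutant cells, so that the higher mutant value was below the lower wild-type value. The maternal log2 fold change was -0.12 (standard error 0.23, edgeR adjusted p = 0.734), beside a median of -0.11 over all genes tested for the maternal copy, of which 29.3% were called. The paternal log2 fold change was -1.36 (standard error 0.23, edgeR adjusted p = 0.00116), where 32.6% of 10977 genes were called and 15.9% were lower on the paternal copy. The paternal copy had an adjusted p of 0.00218 when each allele was fitted alone and of 0.0606 without Zfp57-/- replicate 1, in a range from 2.91e-05 to 0.0606 over 9 alternatives.

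**Figure D3:**
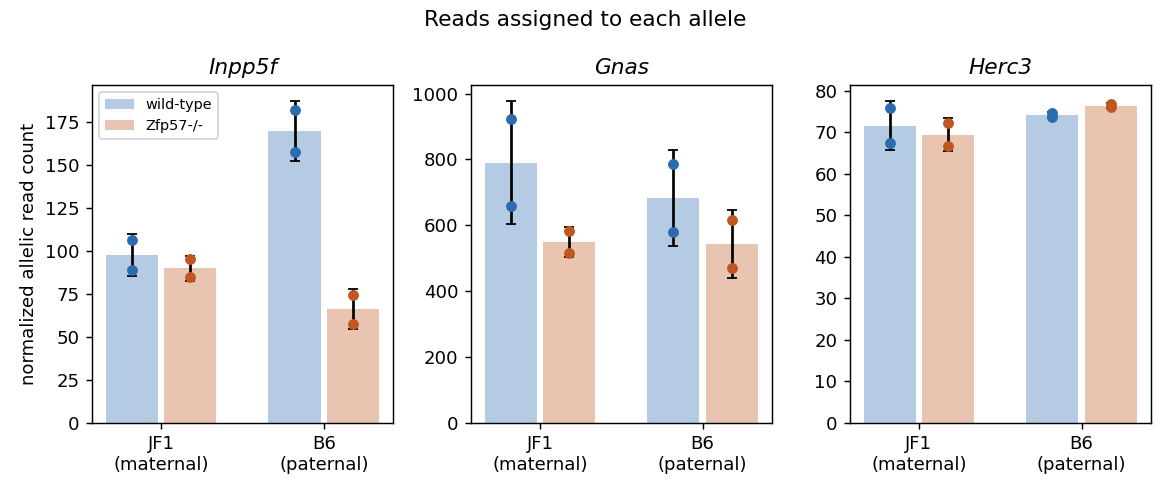
Normalized reads assigned to the maternal (JF1) and paternal (B6) copy of Inpp5f, Gnas and Herc3, with a point for each library, a bar for the mean and an error bar for the SD over 2 replicates (wild-type blue, Zfp57-/- orange). The paternal reads of Inpp5f fall from 169.5 to 65.8 on average, while the maternal reads lie at 97.3 and 89.8.

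The genes around Inpp5f changed less in ratio than Inpp5f itself. Over the 15 nearest genes that had 10 or more allelic reads in each library, the farthest 0.784 Mb away, the change of the mean ratio ran from -0.0491 to 0.11, with a median of -0.00322. None of these 15 changed by as much as Inpp5f, and 1 of them had a wild-type ratio at or below that of Inpp5f. Among 10050 autosomal genes with that minimum depth and no known imprinting, 2.31% had as large or larger an increase and 5.36% had as low or lower a wild-type ratio. These genes were not matched to the depth of Inpp5f, which had 151 to 293 allelic reads in each library. Mcmbp, which encodes a protein bound to the replicative MCM complex and ends 0.016 kb from Inpp5f on the opposite strand, had ratios of 0.529 and 0.519 in wild-type cells and of 0.474 and 0.526 in mutant cells. Its bulk log2 fold change was -0.10 (standard error 0.20, edgeR adjusted p = 0.74). On the other side Bag3, a co-chaperone gene 64.3 kb away, was higher in the Zfp57-/- cells (log2 fold change 1.09, standard error 0.22, edgeR adjusted p = 0.00591), with both copies higher and a contrast between the copies of -0.25 (adjusted p = 0.743). Gm16044, a gene model inside the Inpp5f span on the same strand, had 12 and 7 counts in wild-type cells and 2 and 1 in mutant cells. Reads in exons of both genes, if there are any, were counted for neither. The ratio of its summed counts, wild-type over Zfp57-/-, was 6.52, with a counting interval from 1.92 to 34.4 that leaves out the spread between replicates. With that spread the change of Gm16044 did not pass (log2 fold change -2.65, standard error 1.03, edgeR adjusted p = 0.0814, and from 0.0161 without wild-type replicate 2 to 0.371 over 10 alternatives).

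**Figure D4:**
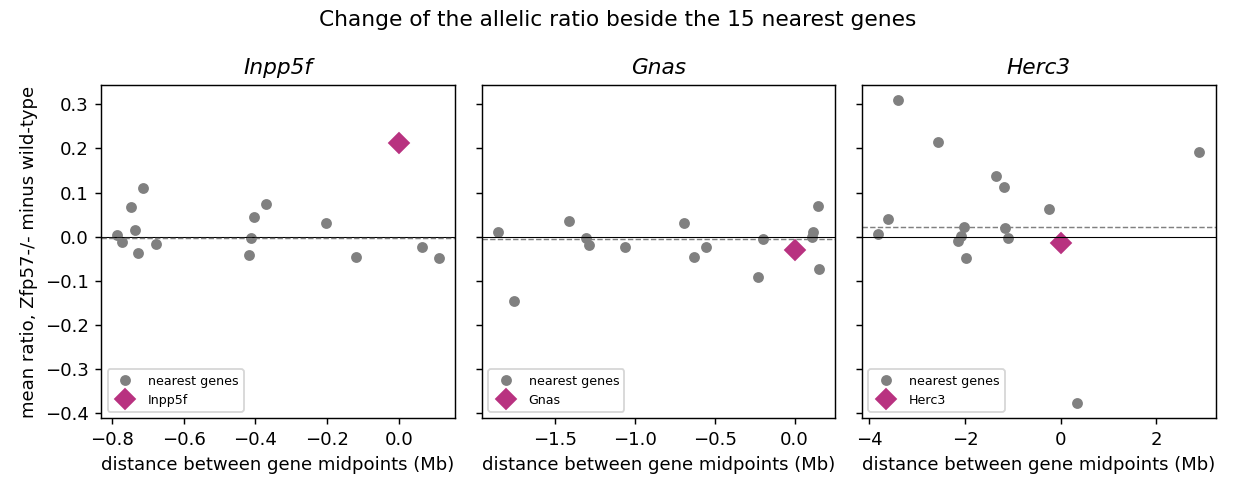
Change of the mean allelic ratio (Zfp57-/- minus wild-type) of Inpp5f, Gnas and Herc3 (diamonds) and of the 15 nearest genes of each (grey points), against the distance between gene midpoints in Mb. The dashed line is the median of the neighbours. Inpp5f lies at 0.213, above all 15 of its neighbours, and Gnas and Herc3 lie within the range of theirs.

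Gnas was expressed from both copies in both genotypes. Its allelic ratio was 0.532 (564 maternal and 497 paternal reads) and 0.54 (1027 and 876) in the wild-type replicates. In the Zfp57-/- replicates it was 0.524 (511 and 464) and 0.486 (604 and 639). The wild-type values lay just above the mutant values, 0.536 ± 0.00573 against 0.505 ± 0.027 (SD, n = 2 each). With Inpp5f, Gnas made 2 of 3 members whose ratios did not overlap between genotypes, against 48.9% of genes. The contrast between genotypes was -0.19 (standard error 0.11, edgeR adjusted p = 0.369). The maternal excess in wild-type cells, 0.21 on the log2 scale (standard error 0.08, edgeR adjusted p = 0.0396), lost the call in DESeq2 (adjusted p = 0.537), without a filter on allelic counts (0.071) and without wild-type replicate 1 (0.166) or 2 (0.501), and its adjusted p was as low as 0.000369 in a test of proportions on pooled reads. Of all 10050 genes compared, 70.1% had a wild-type ratio at or below that of Gnas. Between 19.3 and 21.1% of the bulk reads of Gnas could be given to an allele, less than the 36.1 to 37.0% over all genes, and these reads come from all of its promoters together.

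The bulk level of Gnas was lower in both mutant replicates without passing the test. The normalized counts were 6397 and 8515 in the wild-type libraries and 5076 and 5681 in the Zfp57-/- libraries, which did not overlap, but the wild-type values differed by more than the gap between the groups. The log2 fold change was -0.47 (standard error 0.21, edgeR adjusted p = 0.122). Without wild-type replicate 1 it was -0.69 (adjusted p = 6.22e-07, within a range up to 0.633 over 11 alternatives). The maternal log2 fold change was -0.53 (standard error 0.24, edgeR adjusted p = 0.117) and the paternal one -0.34 (standard error 0.24, adjusted p = 0.307). Without wild-type replicate 1 both copies were called, at -0.78 (adjusted p = 0.000435) and -0.57 (adjusted p = 0.00724). The maternal copy was also called with the replicate number as a block (-0.51, adjusted p = 0.0185), and over 9 alternatives its adjusted p reached 0.49 and that of the paternal copy 0.826.

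Nespas, the antisense transcript that starts inside the Gnas locus and was counted on the minus strand (chr2:174281237-174295436), was mainly paternal in wild-type cells and had reads from both copies in Zfp57-/- cells. It had 4 maternal and 61 paternal reads, then 6 and 35, in the wild-type replicates, which are ratios of 0.0615 and 0.146. In the Zfp57-/- replicates it had 42 and 69, then 51 and 47, which are ratios of 0.378 and 0.52. The contrast between genotypes was 2.91 on the log2 scale (standard error 0.53, edgeR adjusted p = 5.40e-06). The log2 fold change of its maternal copy was 3.14 (edgeR adjusted p = 0.00142), and that of the paternal copy was 0.18 (adjusted p = 0.755). In bulk, Nespas had 153 and 109 counts in wild-type cells and 329 and 294 in mutant cells. Its bulk log2 fold change was 1.16 (standard error 0.29, edgeR adjusted p = 0.0164). With Actb as the scale it was 0.36 and not called (edgeR adjusted p = 0.707), at 1.04 relative to the median of all genes. The other 4 gene models that overlap Gnas had at most 3 counts in any library. On the far side, Nelfcd, a subunit of the negative elongation factor 69.1 kb downstream, changed by 0.08 on the bulk log2 scale (standard error 0.20, edgeR adjusted p = 0.807). Mir298, 16.7 kb upstream, had 0 and 1 counts in wild-type cells and 3 and 5 in mutant cells.

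Herc3 passed no test of its level or of its allelic ratio, and both copies were read about equally. Its normalized count was 263.4 and 236.3 in the wild-type libraries and 234.4 and 225.1 in the Zfp57-/- libraries, for a log2 fold change of -0.12 (edgeR, standard error 0.21, adjusted p = 0.716). The groups did not overlap, but the gap between them was smaller than the difference between the wild-type replicates. The ratios were 0.504 (95% Wilson interval 0.419 to 0.589) and 0.478 (0.401 to 0.555) in wild-type cells and 0.465 (0.385 to 0.547) and 0.487 (0.409 to 0.565) in mutant cells, and all 4 intervals contain 0.5. The log2 ratio of maternal to paternal reads was -0.06 (standard error 0.21) in wild-type cells and -0.14 (standard error 0.21) in mutant cells, and the contrast was -0.08 (standard error 0.30, edgeR adjusted p = 0.944). The standard error of 0.30 leaves room for contrasts in Herc3 that this depth of 129 to 157 allelic reads per library could not show. These reads come from all Herc3 forms together, so opposite biases of single forms would not show. Herc3 is flanked by Abcg2, an ATP-binding cassette exporter, and by Fam13a. Abcg2 was higher in the Zfp57-/- cells, with 273 and 364 counts in wild-type cells and 1071 and 1119 in mutant cells (log2 fold change 1.74, standard error 0.19). Fam13a had 40 and 18 counts in wild-type cells and 26 and 11 in mutant cells, which overlapped.

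Nap1l5 was near the limit of detection. It had 4 and 2 counts in the wild-type libraries and 4 and 13 in the Zfp57-/- libraries, so that the groups overlapped and the higher mutant sum came from Zfp57-/- replicate 2. The log2 fold change was 1.38 (standard error 0.99, edgeR adjusted p = 0.338), and 0.36 without Zfp57-/- replicate 2. The summed counts of 6 and 17 gave a ratio of 2.75 of Zfp57-/- over wild-type cells, with an exact counting interval from 1.04 to 8.52 that leaves out the spread between replicates. No allelic read was assigned in wild-type cells, and the 4 assigned in Zfp57-/- cells were 1 paternal in replicate 1 and 1 maternal and 2 paternal in replicate 2. The pooled ratio of 0.25 had a 95% Wilson interval from 0.0456 to 0.699, so that neither parental bias nor balance of Nap1l5 was detectable at this depth.

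Rasgrf1 was likewise scarce, and most of its counts came from wild-type replicate 1. It had 18 and 5 counts in the wild-type libraries and 1 and 3 in the Zfp57-/- libraries, and the mutant libraries were all at or below 3 counts. The ratio of summed counts, 23 to 4, was 5.92 in favour of wild-type cells, with an exact counting interval from 2.02 to 23.6. That interval leaves out the spread between replicates. The edgeR log2 fold change was -2.59 (standard error 1.08, adjusted p = 0.102). It was called without wild-type replicate 2 (-3.34, adjusted p = 0.00317) and was -1.17 (adjusted p = 0.495) without wild-type replicate 1. Of 6 allelic reads in wild-type cells, 1 was maternal, a pooled ratio of 0.167 with a 95% Wilson interval from 0.0301 to 0.563, which contains 0.5. No allelic read was assigned in Zfp57-/- cells, so the allelic state of Rasgrf1 there could not be measured. The nearest tested gene downstream was Ctsh, a lysosomal protease 27.2 kb away, which was higher in the Zfp57-/- cells (log2 fold change 1.29, standard error 0.32). Tmed3, a cargo receptor of the early secretory pathway 204.8 kb upstream, had a log2 fold change of 0.05 (standard error 0.25).

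The families of the 5 genes were read beside all genes tested, whose median log2 fold change was -0.01 and of which 13% (2607) were higher and 14.6% (2915) were lower in the Zfp57-/- cells. Among 10 genes of the NAP1 family, Nap1l5 included, 2 were lower and the other 8 did not pass, beside 14.6% of all genes lower, with a median of -0.41. The lower ones were Tspyl4, with 468 and 912 counts in wild-type cells and 150 and 126 in mutant cells (log2 fold change -2.32), and Nap1l3, with 44 and 74 counts against 9 and 23 (-1.91). Nap1l1, a histone chaperone of the same family that acts in most cells, had 3896 and 4996 counts in wild-type cells and 5979 and 5452 in mutant cells and did not pass (0.32). Of 5 HERC genes, Herc1, a giant ubiquitin ligase, was lower with 4325 and 4159 counts against 2553 and 2567 (-0.80), and Herc4 was higher with 708 and 795 counts against 1179 and 1171 (0.59). Herc2, Herc3 and Herc6 did not pass, and the median was -0.12.

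Of 26 genes of the Gs and cAMP pathway, 9 were lower and 17 did not pass, with a median of -0.44, beside 14.6% of all genes lower and a median of -0.01. The largest decreases were those of Gnao1, the Go alpha subunit that is abundant in neurons, from 438 and 615 counts to 58 and 58 (log2 fold change -3.21), and of Prkar2b, a regulatory subunit of protein kinase A, from 470 and 768 to 92 and 86 (-2.82). Gnal, the Gs family member of olfactory and striatal neurons, had 57 and 113 counts in wild-type cells and 11 and 31 in mutant cells (-2.03). The inhibitory subunits Gnai2 and Gnai3 had log2 fold changes of -0.35 and 0.02 and did not pass.

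Of 8 Ras exchange factors, 3 were higher, 3 were lower and 2 did not pass, Rasgrf1 among the latter, with a median of 0.08, beside 13% of all genes higher and 14.6% lower. The diacylglycerol-responsive Rasgrp4 went from 4 and 4 counts to 79 and 75 (log2 fold change 4.18) and Rasgrp2 from 7 and 7 to 148 and 103 (4.10). Rasgrf2, the closest paralog of Rasgrf1, was the third higher gene with 1 and 4 counts in wild-type cells and 17 and 19 in mutant cells (2.77). Rasgrp1 was lower with 81 and 30 counts against 14 and 17 (-1.97), and Sos2, an adaptor-bound exchange factor, with 654 and 623 against 273 and 314 (-1.19). Of 13 SAC-domain phosphatases and inositol 5-phosphatases, Inpp5f was the one that was lower. Inpp5d, the SHIP1 phosphatase known from blood cells, was higher with 12 and 33 counts in wild-type cells and 180 and 138 in mutant cells (2.81), and the other 11 did not pass. The median was -0.20.

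**Figure D5:**
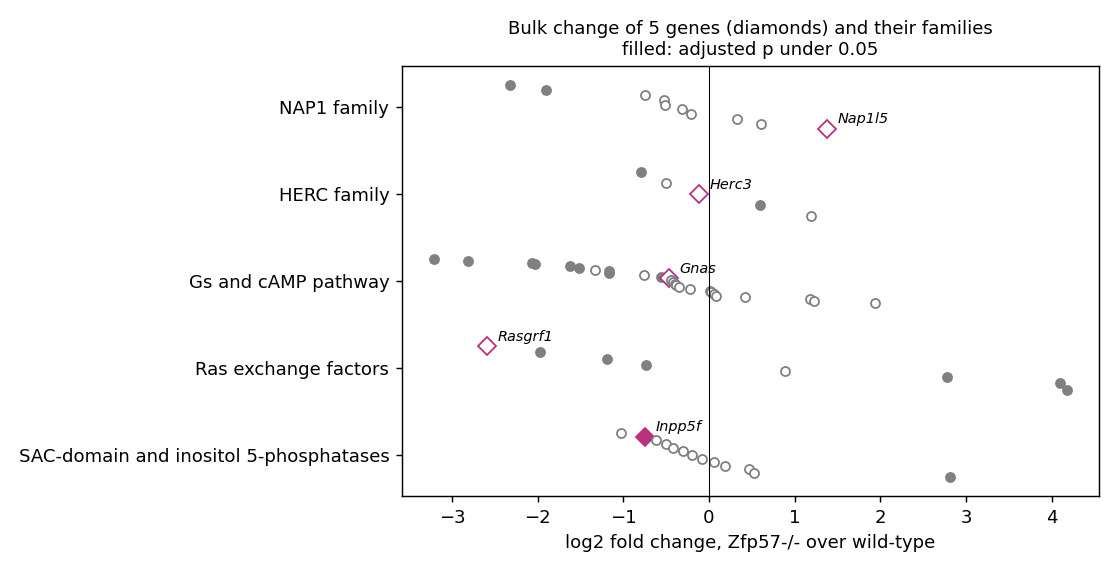
Bulk log2 fold change (Zfp57-/- over wild-type) of the 5 genes (diamonds) and of the genes of the 5 families (circles), 1 family per row. Filled symbols passed an adjusted p of 0.05 in edgeR. Inpp5f at -0.74 is the filled diamond, and the other 4 diamonds are open.

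The genes whose pattern over the 4 libraries lay nearest to each member were found by the root mean square difference of centred log2 CPM, among genes with a mean of at least 1 on the log2 scale. A pseudocount of 0.5 CPM was used. Nearest to Inpp5f were Dennd2a (0.011), Strbp (0.0161) and Gtpbp8 (0.018), and 222 of 13945 genes lay within 0.1. For Gnas they were Kdm4a (0.0129), Fundc1 (0.0136) and Trappc5 (0.0183), with 273 genes within 0.1. For Herc3 they were Nfrkb (0.0132), Ankrd44 (0.0199) and Zfp276 (0.0203), with 536 genes within 0.1. The scarce members, Nap1l5 and Rasgrf1, lay below that minimum themselves, and the pseudocount flattens patterns at such counts. Within 0.1 lay 1 gene for Nap1l5 and 4 for Rasgrf1, numbers that cannot be read apart from these limits. Nap1l5 lay nearest to Fam187b (0.0837), Plau (0.116) and Dnajc22 (0.126), and Rasgrf1 to Enpp2 (0.0625), Gm42549 (0.0718) and Irf2 (0.0814). The bulk log2 fold change was 0.73 for Fam187b beside 1.38 for Nap1l5, and -1.56 for Enpp2 beside -2.59 for Rasgrf1. With 4 libraries such likeness describes the pattern and carries no test.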

How the data were processed

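RNA-seq of 2 wild-type and 2 Zfp57-/- day 12-JB1 cultures was used. Per the file headers and the study's methods, the authors used Trimmomatic 0.36 for trimming and STAR 2.5.4a for alignment to GRCm38, kept unique alignments, and deposited raw counts per gene (featureCounts 1.6.0, strand setting 2, GENCODE vM20). In the allele-specific table the deposited counts are of reads that SNPsplit assigned to JF1 or B6 after alignment to an N-masked genome. Reads without a strain polymorphism are absent there. Symbols were matched for 54721 of 55602 bulk gene identifiers.

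Genes with more than 8 bulk counts in all were compared with edgeR 4.0.16 (R 4.3.3, TMM, robust quasi-likelihood test). Allelic bias was tested for autosomal genes whose normalized allelic count was 10 or more in each wild-type library. That edgeR fit took the 8 allele columns, with library terms and one allele effect in each genotype. A second edgeR fit, with bulk library sizes, compared each copy between genotypes. There the 2 copies of a library enter as separate columns. The threshold was an adjusted p of 0.05. Known imprinted genes were left out of the neighbours. The replicates are the study's biological duplicates, and their mean squared deviation was 38.7 times counting noise in wild-type cells and 7.91 times in mutant cells. Alternatives were DESeq2 1.42.0, other scalings and filters, a replicate block, a test of proportions, pooled or centred ratios, each allele fitted alone (added after seeing the data) and each library left out. RPKM was computed here from counts, exon lengths and TMM library sizes. The 5 genes and the lists were chosen with earlier results of these data known. Named were the 5 genes, the genes that overlap or flank them, the 2 called genes per family and direction with the largest change, and the 3 most alike genes. Nap1l1, Gnal, Gnai2, Gnai3, Rasgrf2 and the other unlisted family genes were named after their values were seen.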

Additional observations from a re-analysis of the deposited data

Results flagged for a closer look

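The ratio of maternal to paternal reads differed between genotypes for Inpp5f, by 1.23 on the log2 scale in the edgeR contrast (adjusted p = 0.00013), with a higher maternal share in both Zfp57-/- replicates than in either wild-type replicate. DESeq2 did not call it (adjusted p = 0.0746), which makes 1 of its 8 alternatives without a call. The same contrast was 2.91 for Nespas (edgeR adjusted p = 5.40e-06, and from 8.95e-09 to 0.0241 over its 8 alternatives). Groups of 2 libraries are too small for a test of single outlying libraries.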

How the results depend on the processing

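Of 182 alternative values of the tests on the 5 genes, 160 kept their direction and their side of the threshold. Actb as the scale moved the median of all genes to -0.68 in bulk, -0.77 on the maternal and -0.64 on the paternal copy. On that scale Inpp5f was at -1.45 in bulk and -2.08 on its paternal copy, still called, and at -0.77 and -1.44 relative to these medians. The paternal copies of Herc3 (-0.63) and Nespas (-0.65) changed sign, at 0.01 and -0.01 relative to the median. Actb scaling called 3480 genes in bulk (486 higher and 2994 lower, against 2607 and 2915), 1790 on the maternal and 1969 on the paternal copy, against 5522, 3221 and 3577. DESeq2 called 1180 genes for bias in wild-type cells (2587 in edgeR), 742 in Zfp57-/- cells (2395) and 837 in the contrast (1588). It gave -0.80 for the wild-type bias of Inpp5f, 0.21 for that of Gnas and 1.25 for the contrast of Inpp5f, none of them called, and the bias of Gnas was also 0.21 and not called without a filter on allelic counts. Centring on the 15 nearest genes put the ratio of Gnas at 0.561 in wild-type cells and 0.54 in mutant cells and that of Herc3 at 0.533 and 0.496.

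With each library left out, the calls numbered 2831 to 9947 in bulk, 1390 to 3040 for bias in wild-type cells, 866 to 4507 for the maternal and 1530 to 4797 for the paternal copy. Bulk log2 fold changes ran from -0.81 to -0.71 for Inpp5f, -0.69 to -0.25 for Gnas, and -3.47 to -1.17 for Rasgrf1. Wild-type bias ran from -1.04 to -0.57 for Inpp5f, 0.18 to 0.23 for Gnas, and -0.13 to 0.022 for Herc3. Bias in Zfp57-/- cells ran from 0.19 to 0.72 for Inpp5f, -0.081 to 0.14 for Gnas, and -0.71 to 0.12 for Nespas. Maternal levels ran from -0.27 to 0.016 for Inpp5f, -0.78 to -0.26 for Gnas, and -0.13 to 0.022 for Herc3. Paternal levels ran from -1.55 to -1.18 for Inpp5f, -0.57 to -0.10 for Gnas, and -0.31 to 0.84 for Nespas. Leaving out a library leaves 1 in a genotype, which was assumed to vary like the other group. The causes of these shifts were not tested.

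Replicates share only their number. The deviations of libraries with the same number had a correlation of 0.189 (13224 genes), and a fit with the replicate block called 6984 genes in bulk against 5522. With the block the maternal level of Gnas passed (-0.51, adjusted p = 0.0185), and no other call on the 5 genes changed. The depth limits Nap1l5 and Rasgrf1 most, with at most 18 counts in any library and too few allelic reads for a ratio.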
